A study of Mus musculus with 32 samples.

Results

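Eugenol, the clove odorant, was compared with vehicle in the GFP-positive olfactory cells of S100a5-tauGFP mice. The arrays were chosen by their titles and labels: 4 of eugenol and 4 of vehicle, 8 of the 32 arrays of the study, with 1 array of each kind in each of 4 experiments that share a number in the title. All mice carried the reporter allele, in which GFP is made from S100a5, so the vehicle mice carried it too. Per the labels' protocols, each adult mouse was alone in an olfactometer, first in clean air for 26 h and then for 14 h with a pulse lasting 10 s in every 5 min. The olfactory mucosa was dissociated and sorted by fluorescence, and total RNA of the sorted cells was hybridised to Affymetrix arrays. The GFP-negative cells of the same experiments (4 eugenol and 4 vehicle arrays) and the GFP-positive cells of the muscone experiments (4 muscone and 4 vehicle arrays) serve here only as comparisons. The labels do not name the vehicle or the dose, nor whether mice were pooled for an array. With 1 array of each kind in an experiment, p-values here rest on how far differences between groups varied from experiment to experiment. For each gene that spread is pooled over all 32 arrays, and is not that of the GFP-positive eugenol and vehicle arrays alone. How much of that spread comes from mice and how much is technical is not known.

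A mature olfactory sensory neuron transcribes a single odorant receptor gene out of a very large family. Odorant binding acts through the G protein Golf and adenylyl cyclase 3 on a cyclic nucleotide-gated channel and a calcium-activated chloride channel. Sustained activity raises S100a5, a calcium-binding protein, and this is what the GFP of these mice reports. The design asks whether transcripts of particular receptors are more abundant among GFP-positive cells once eugenol has been given. In sorted populations, fewer cells of a type and less RNA per cell cannot be told apart.

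Signals are log2 values as deposited, and a difference of 1 is a doubling. The arrays' median signal ran from 7.52 to 8.55 in the eugenol and from 7.55 to 8.74 in the vehicle arrays. Arrays of a group correlated across genes at 0.984 to 0.990 (eugenol) and 0.967 to 0.988 (vehicle). Mature neuron transcripts were bright in both gates: the 13 marker genes of that list had array medians of 12.71 to 13.56 in GFP-positive and 12.27 to 13.34 in GFP-negative cells. Omp, the olfactory marker protein, lay between 13.72 and 14.37 in GFP-positive and between 13.65 and 14.25 in GFP-negative cells. The 14 immune markers had medians of 6.93 to 8.47 in GFP-positive and 10.29 to 11.90 in GFP-negative cells. One array stood apart. In the vehicle GFP-positive array of experiment 1 the 8 measured markers of sustentacular cells, the supporting cells of the epithelium, had a median of 12.09, against 9.07 to 10.25 in the other 7 GFP-positive arrays.

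No gene passed the threshold between eugenol and vehicle in GFP-positive cells. Of 19,938 genes tested with limma, 0 (0%) had a Benjamini-Hochberg adjusted p under 0.05, and the smallest adjusted p was 0.999. At a raw p under 0.05 there were 923 genes (4.63%), 226 of them higher (1.13%) and 697 lower with eugenol (3.5%). Without experiment 2 the number at a raw p under 0.05 was 2129, of which 1457 were higher. That split was 599 higher and 429 lower under quantile normalization and 504 against 374 when arrays were centred on all probe sets. With mature neuron genes as the centre it was 4 against 461, and with odorant receptors 2799 against 42. The median difference over all genes was −0.03. A total of 608 genes were higher in all 4 experiments (3.05%) and 1594 were lower in all 4 (7.99%).

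Differences were small and one-sided in size. With eugenol 2 genes were more than 0.5 higher and 356 more than 0.5 lower, while 0 were more than 1 higher and 7 more than 1 lower. These counts moved with the choice of experiments: leaving out 1 of the 4 gave 135 to 607 genes more than 0.5 lower, lowest without experiment 1 and highest without experiment 3, and 3 to 64 more than 1 lower. Array weights gave 501 and 49, and centring on odorant receptors gave 134 and 0, with 20 genes more than 0.5 higher. The median standard error (SE) was 0.10 over all genes and 0.21 over odorant receptors. A gene passing alone would have needed a difference of 0.65 at the median SE of all genes, and of 1.33 at that of the receptors. The 4 experiments also shared little of their differences: across all genes the eugenol minus vehicle differences of any 2 experiments correlated at −0.22 to 0.34 (median −0.01), and across odorant receptors at −0.07 to 0.20 (median 0.06). Genes are not independent replicates, so these correlations carry no p.

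**Figure D1:**
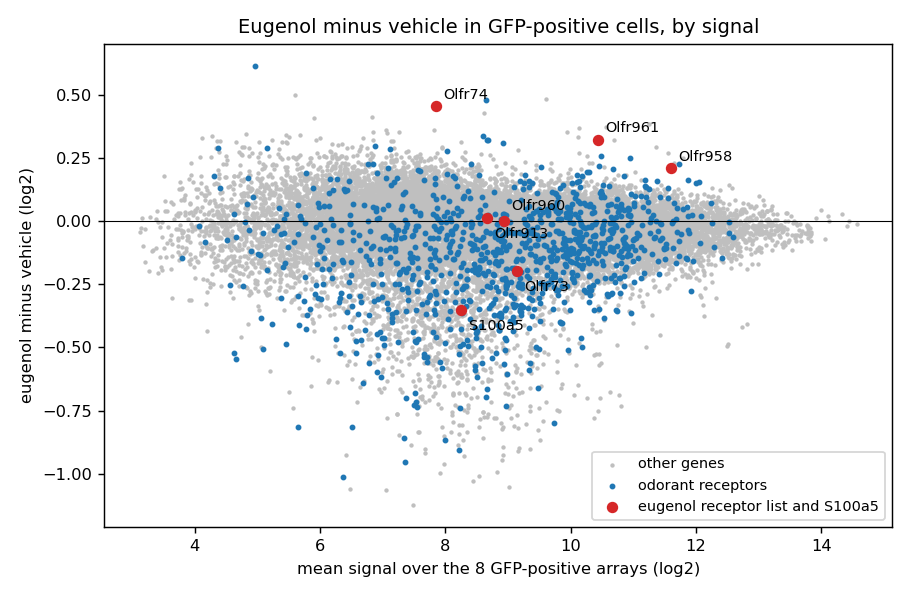
Eugenol minus vehicle difference (log2) of 19,938 genes against their mean signal over the 8 GFP-positive arrays (log2), with 1027 odorant receptors in blue and the 6 receptors of the eugenol list and S100a5 in red. The 356 genes below −0.5 gather at middle signals, and only 2 genes lie above 0.5.

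Among receptors linked to eugenol, Olfr961, Olfr958 and Olfr74 were higher by 0.32, 0.21 and 0.46 with eugenol, and none passed. The list of 6 held Olfr73 and Olfr74, known to respond to eugenol in cells, and Olfr913, Olfr958, Olfr960 and Olfr961. Part of it was recalled from the work published on these same arrays, so its direction is not independent evidence. Its median difference was 0.11, against −0.10 over all 1027 odorant receptors and −0.03 over all genes. In the list 5 of 6 were above 0, where 260 of 1027 receptors and 7865 of 19,938 genes were. Among the 5, however, Olfr960 at 0.00 (SE 0.21) and Olfr913 at 0.01 (SE 0.33) differed from 0 by far less than their SE. The count is therefore no measure of enrichment in the list. Of the list 0 of 6 had a raw p under 0.05, against 4.63% of all genes.

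Olfr961, Olfr960 and Olfr958 lie close together on chromosome 9. A stretch of 44 bases is shown because Olfr961 and Olfr960 are nearly equal there. It starts at the annotated gene start of Olfr961, which is an ATG, and the stretches of the other receptors are those that align to it best without gaps, so they need not begin at a start codon. They are from RefSeq on GRCm38.p6, at chr9:39646728-39646771 (plus strand) for Olfr961, chr9:39623131-39623174 (plus) for Olfr960 and chr9:39550820-39550863 (minus) for Olfr958, 5′ to 3′. Capitals mark the bases that differ, in Olfr961 and Olfr960 from each other and in Olfr958 from Olfr961.
Olfr961: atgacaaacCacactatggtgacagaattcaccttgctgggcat
Olfr960: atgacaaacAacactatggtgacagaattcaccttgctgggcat
Olfr958: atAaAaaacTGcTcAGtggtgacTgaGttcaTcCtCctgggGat
Olfr961 and Olfr960 were equal at 43 of 44 positions (97.7%), with the substitution C10A counted from 1 at the first base shown. Olfr961 and Olfr958 were equal at 31 of 44 (70.5%). Whether the probe sets of these genes cross-hybridise was not tested.

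Olfr961 had signals of 10.64, 11.29, 10.35 and 10.13 with eugenol and 10.33, 11.16, 10.04 and 9.59 with vehicle, in experiments 1 to 4, the order used throughout. Eugenol was the higher in 4 of 4 experiments, but the groups overlapped, since the experiments lay further apart than eugenol and vehicle did within them. The difference was 0.32 (SE 0.17, limma adjusted p = 0.999). Its 95% interval ran from −0.02 to 0.67.

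Olfr958, the brightest of the list, measured 11.98, 12.01, 11.42 and 11.43 with eugenol against 11.90, 11.96, 11.05 and 11.10 with vehicle. It too was higher in 4 of 4 experiments, by less than 0.5 in each, and the groups overlapped. The difference was 0.21 (SE 0.23). Olfr960, nearly equal to Olfr961 in the stretch shown, measured 8.66, 10.18, 8.67 and 8.25 against 8.59, 10.38, 8.35 and 8.44. It was higher in 2 of 4 experiments, and its difference was 0.00 (SE 0.21).

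Olfr74 measured 8.34, 9.23, 7.14 and 7.60 with eugenol against 7.60, 7.99, 7.12 and 7.78 with vehicle. Experiments 1 and 2 made its difference of 0.46 (SE 0.35), which was 0.19 without experiment 2, and experiment 4 went the other way. Olfr73, a eugenol receptor named mOR-EG in work on cells, measured 9.14, 10.17, 8.62 and 8.26 against 9.31, 10.25, 8.57 and 8.85. It was lower in 3 of 4 experiments, with a difference of −0.20 (SE 0.21). Olfr913 measured 8.30, 9.22, 8.03 and 9.14 against 7.25, 10.43, 8.25 and 8.71. Its vehicle arrays spread over more than 3 log2 units, and the difference was 0.01 (SE 0.33).

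**Figure D2:**
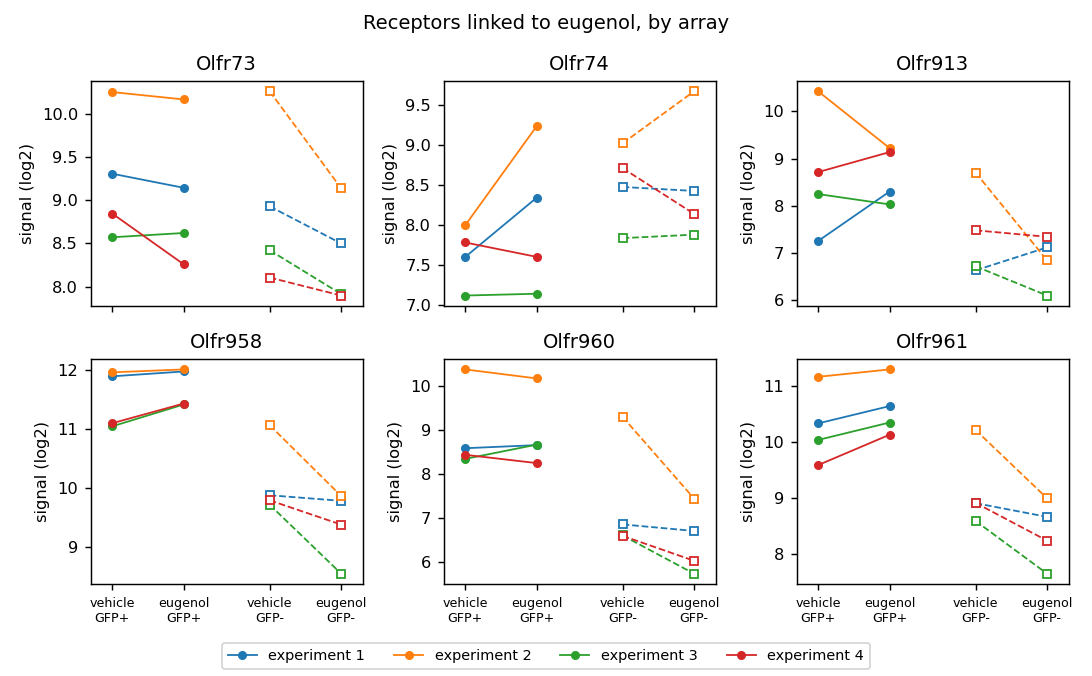
Signal (log2) of the 6 receptors of the eugenol list in each array of the eugenol experiments, GFP-positive cells as filled points and solid lines, GFP-negative cells as open squares and dashed lines, with 1 colour an experiment. Lines join vehicle and eugenol of an experiment: in GFP-positive cells Olfr961 and Olfr958 slope upward in 4 of 4, and in GFP-negative cells Olfr961, Olfr958 and Olfr960 slope downward in 4 of 4.

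The odorant receptor family had a median difference below that of all genes, and no receptor passed. Of 1027 receptors, the genes whose symbol begins with Olfr, 0 passed. At a raw p under 0.05, 3 were higher and 47 lower, where all genes gave 1.13% and 3.5%. These counts moved with the arrays fitted. The 8 GFP-positive arrays alone gave 7 higher and 146 lower receptors, against 96 and 726 of all 19,938 genes. The 16 arrays of the eugenol experiments gave 7 and 85, against 245 and 933 of all genes. Their median difference was −0.10, and −0.06 without experiment 2. Centring on all probe sets put the receptor median at −0.07 and that of all genes at 0.01. Centring on the receptors shifts all genes alike and put them at 0.06 and 0.13. In all 4 experiments 22 receptors were higher and 143 lower, where all genes gave 3.05% and 7.99%. By experiment the receptor median was −0.07, −0.21, 0.05 and −0.14, where all genes gave 0.04, −0.16, 0.07 and −0.00330, so the receptors lay below the bulk in each.

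The receptors higher with eugenol at the smallest p were Olfr936, Olfr645 and Olfr317. Olfr936 was 0.62 higher (SE 0.27), the largest positive difference of all genes. It measured 5.17, 6.27, 4.92 and 4.71 with eugenol against 5.28, 4.47, 4.44 and 4.41, and was lower in experiment 1 and highest in experiment 2, without which the difference was 0.22. These signals sit at the dim end of the scale, marked by the vomeronasal receptors, which belong to another organ. The 95th percentile of their mean signals, 6.19, is the limit at or under which a gene's mean over the 32 arrays is called dim here. Olfr645 was 0.16 higher (SE 0.08) and Olfr317 0.20 higher (SE 0.10), each in 4 of 4 experiments. Behind them came Olfr186 (0.34) and Olfr961, then Olfr1457, Olfr504, Olfr1449, Olfr1053, Olfr700, Olfr66 and Olfr1392 with differences of 0.19 to 0.31. Of these last 7, Olfr1457, Olfr504, Olfr1053 and Olfr700 were higher in 4 of 4 experiments. However, Olfr1457, Olfr504, Olfr1053 and Olfr66 were dim.

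On the lower side Olfr1443 had the smallest p of all receptors. It measured 6.68, 7.36, 5.06 and 6.19 with eugenol against 6.91, 7.998, 5.80 and 6.67, lower in 4 of 4 experiments with overlapping groups, a difference of −0.52 (SE 0.14, limma adjusted p = 0.999). Its mean signal over all arrays was dim. Olfr731, a bright receptor, measured 10.58, 10.67, 9.09 and 9.41 against 10.68, 10.90, 10.08 and 9.94, and was lower by 0.10 to 0.99 in 4 of 4 experiments. Olfr834 (−0.55, also dim), Olfr70 (−0.36), Olfr972 (−0.70) and Olfr1030 (−0.70) completed the 6 lower receptors with the smallest p. The most negative difference among receptors, chosen after its value was seen, was that of Olfr338 at −1.01 (SE 0.33, lower in 4 of 4).

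Precision did not depend much on brightness. The dimmest 342, middle 343 and brightest 342 receptors had a median SE of 0.21, 0.22 and 0.20 and a median difference of −0.12, −0.15 and −0.06. The 95% interval lay below +1, a doubling, for 338, 340 and 342 of them, and wholly between −1 and +1 for 290, 306 and 338. A doubling with eugenol was outside the interval of 1020 receptors, each taken alone. The intervals are not adjusted for the number of receptors and rest on the experiment block. Without the block the median SE of the receptors was 0.55, and in a fit of the 8 GFP-positive arrays alone, with the block, it was 0.13. Of the 1027 receptors 100 were dim, and their differences are approximate. The largest chromosomal groups gave medians of −0.14 (chromosome 2, 277 receptors), −0.03 (chromosome 7, 220) and −0.11 (chromosome 9, 128).

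**Figure D3:**
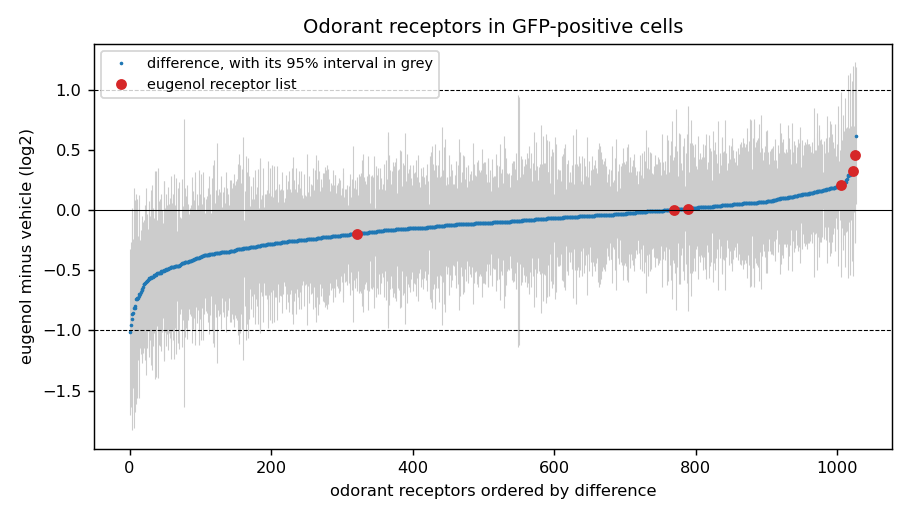
Eugenol minus vehicle difference (log2) of 1027 odorant receptors in GFP-positive cells, ordered from lowest to highest, with 95% intervals in grey and the eugenol list in red; dashed lines mark −1 and +1. Most differences are negative, and Olfr961, Olfr958 and Olfr74 lie at the right end without standing clear of the other receptors.

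No gene of the machinery of odorant detection passed between eugenol and vehicle. The 18 transduction genes had a median difference of −0.03, equal to that of all genes, with 0 at a raw p under 0.05 (4.63% of all genes). Grk3, a kinase that desensitises the pathway, was 0.42 lower (SE 0.27, in 4 of 4 experiments), with a difference of −0.24 without experiment 1. Rtp2, which helps carry receptors to the cell surface, was 0.12 lower, and Slc12a2, which loads the cell with chloride, 0.06 lower. In other chemoreceptor families, the 13 trace amine-associated receptors had a median of −0.05 and the 167 vomeronasal receptors one of −0.01. The vomeronasal median was 0.06, −0.35, 0.14 and 0.11 by experiment, and 0.11 without experiment 2. Of the 167, 16 were higher and 4 lower in all 4 experiments, where all genes gave 3.05% and 7.99%. However, 158 of the 167 were dim. Of 3 TRP channels that eugenol is known to open, Trpa1 was 0.15 higher (SE 0.07, raw p under 0.05, 4 of 4), Trpv3 0.06 higher and Trpv1 0.02 lower. Trpa1 was dim, and in GFP-negative cells it was higher too, by 0.15, 0.18, 0.25 and 0.09 in experiments 1 to 4.

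S100a5, whose gene drives the reporter, was not higher with eugenol within this gate. It measured 11.79, 7.10, 6.22 and 7.21 with eugenol and 12.16, 8.08, 6.33 and 7.16 with vehicle. Experiment 1 was far brighter in both groups than the other 3, and eugenol was lower in experiments 1, 2 and 3. The difference was −0.35 (SE 0.21, limma adjusted p = 0.999), and −0.14 without experiment 2. The cells compared had been gated on the GFP made from this gene. In GFP-negative cells S100a5 measured 10.62, 6.87, 5.79 and 6.90 with eugenol and 11.09, 7.65, 5.98 and 6.89 with vehicle. In experiments 2 to 4 the gates thus lay close together at low signals, which limits S100a5 as a readout there.

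Genes known to follow the activity of olfactory neurons showed no common shift. The 6 raised by activity had a median of −0.04, with Kirrel2, an adhesion molecule of axon sorting, 0.12 higher (SE 0.10) in 2 of 4 experiments and 0.01 without experiment 1, and Epha5 0.07 lower. The 4 lowered by activity had a median of −0.11, among them H2bc21, a histone H2B gene, 0.11 lower (SE 0.10) and Plxnc1 0.30 lower (SE 0.23). The 20 immediate early genes, a fast transcriptional readout of stimulation, had a median of −0.10, and −0.03 without experiment 2. By experiment it was −0.04, −0.23, 0.07 and −0.02. Of these genes 1 had a raw p under 0.05, Btg2 at −0.38 (SE 0.14), and Fos was 0.36 lower (SE 0.22), both lower in 4 of 4 experiments. The 16 axon sorting and guidance genes had a median of −0.01. Omp measured 14.26, 14.30, 13.86 and 14.07 with eugenol against 14.22, 14.37, 13.72 and 14.10, a difference of 0.02 (SE 0.09).

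Among stress and survival genes values were also small. The 13 genes of the unfolded protein response had a median of −0.09, and −0.06 without experiment 1, with Pdia4, Pdia6 and Calr, all chaperones of the endoplasmic reticulum, 0.17, 0.20 and 0.12 lower. The 14 oxidative stress genes had a median of −0.12, and −0.05 without experiment 1, with the glutathione synthesis subunits Gclm and Gclc 0.18 and 0.15 lower in 4 of 4 experiments. Of 12 apoptosis genes, Bbc3, the death-promoting protein PUMA, was 0.21 higher (SE 0.07, raw p under 0.05, 4 of 4), while Casp8 was 0.83 lower (SE 0.40), with −1.81 in experiment 1 and −0.52 to −0.50 in the others.

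The smallest p-values of all genes belonged to lower genes. Nek7, a mitotic kinase also needed for the inflammasome, measured 11.25, 11.60, 10.58 and 11.46 with eugenol against 11.51, 11.90, 10.88 and 11.62. It was lower by about the same step in each experiment (−0.25, SE 0.06, limma adjusted p = 0.999), though the groups overlapped. Sec63, part of the protein translocation channel of the endoplasmic reticulum, was 0.30 lower (SE 0.07), and Pdia3, a disulfide isomerase there, also 0.30 lower (SE 0.08). Ginm1, Klk1b5, 4931414P19Rik and Ctage5 were 0.25 to 0.41 lower, all in 4 of 4 experiments. B2m, the light chain of MHC class I, measured 9.77, 10.48, 9.76 and 10.44 against 11.14, 10.92, 10.24 and 10.96, with a step of −1.37 in experiment 1 and −0.52 to −0.44 in the others.

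On the higher side Rsad1, a radical SAM protein, measured 9.40, 9.62, 8.77 and 9.43 with eugenol against 9.21, 9.34, 8.33 and 9.21, a difference of 0.28 (SE 0.08, limma adjusted p = 0.999). It was higher in 4 of 4 experiments with overlapping groups. Of the other 9 higher genes with the smallest p, Vmn1r234, Vmn1r78, Dcaf8l and Gm10741 were at dim signals. Krtap4-7 (0.35), Nkx1-2 (0.27), 1190007I07Rik (0.26), D830025C05Rik (0.22) and Col10a1 (0.21) were brighter, and each was higher in 4 of 4 experiments.

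The lists with the most negative medians were those of supporting cells, and their differences came largely from experiment 1. The 15 measured xenobiotic enzymes, which detoxify odorants and are made mainly by supporting cells, had a median of −0.65, and the 8 sustentacular markers one of −0.63. Cyp2g1, Cyp1a2, Cbr2 and Sult1c1 belong to both lists, so the 2 medians are not independent. By experiment the enzymes gave −2.14, 0.00038, −0.21 and −0.21 and the sustentacular markers −1.85, −0.07, −0.43 and −0.19. Without experiment 1 the medians were −0.15 for both lists. No member passed in either fit.

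Gsta3, a glutathione transferase, measured 8.09, 8.21, 7.90 and 8.51 with eugenol against 10.44, 8.29, 8.20 and 9.21 with vehicle. Only the vehicle array of experiment 1 exceeded 10. Sox2, a transcription factor of supporting and basal cells, measured 8.52, 8.04, 7.63 and 8.72 against 10.58, 8.08, 8.17 and 9.19, and the same array was the high one. The summed linear signal of the 8 sustentacular markers ran from 10149 to 23753 in the eugenol and from 10863 to 51737 in the vehicle arrays, and 0 of the 8 were at the dim level. The part of this array in the differences of these genes was not tested beyond leaving its experiment out.

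Of 19,938 genes 356 were more than 0.5 lower. Among them were 11 of the 15 xenobiotic enzymes, 4 of the 8 sustentacular markers and 48 of the 1027 odorant receptors. Cyp1a2 and Sult1c1 are counted in both of the first 2 lists. Of the 356, 292 had their most negative difference in experiment 1, with medians by experiment of −1.69, −0.27, −0.17 and −0.47. Leaving out experiment 1 brought the number of genes more than 0.5 lower to 135. Sult1e1, a sulfotransferase, had the most negative difference of all genes at −1.12 (SE 0.46), with vehicle signals of 9.78, 7.19, 7.001 and 8.20, and was chosen after its value was seen. The 48 odorant receptors among the 356 had medians of −0.40, −0.72, −0.67 and −0.84, and 6 of them were most negative in experiment 1. All 356 were picked for their mean difference over these same experiments, so mostly negative medians follow from that choice.

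Other cell type lists had less negative medians, though single members differed as much. The 7 Bowman's gland markers had a median of −0.26, and −0.06 without experiment 1. The 9 microvillous cell markers had one of −0.06, with 7 below 0. Among them Ascl3 was 0.91 and Hepacam2 0.61 lower, and 0.42 and 0.36 lower without experiment 1. The 8 basal progenitor markers had a median of −0.22 and one below 0 in each experiment (−0.36, −0.27, −0.16 and −0.20). Their array medians were 7.14 to 8.11 in GFP-positive and 9.23 to 10.70 in GFP-negative cells. Top2a, a topoisomerase of dividing cells, measured 7.22, 7.31, 6.87 and 7.22 with eugenol against 7.72, 7.75, 7.27 and 7.74. The eugenol arrays were lower by 0.40 to 0.52 in 4 of 4 experiments, a difference of −0.47 (SE 0.17, limma adjusted p = 0.999). Neurod1 (−0.53, and −0.31 without experiment 3) and Mki67 (−0.45) were lower too in 4 of 4.

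The 14 immune markers had a median of −0.32, with Cd74 and H2-Aa, both of antigen presentation, 0.73 and 0.68 lower in 3 of 4 experiments and Ptprc, the leukocyte marker CD45, 0.62 lower in 4 of 4. Without experiment 4 Cd74 was at −0.48 and H2-Aa at −0.38, and without experiment 3 H2-Aa was at −1.06. The list's summed linear signal was 3822 to 5832 in eugenol and 3744 to 10589 in vehicle arrays. The 6 horizontal basal cell markers had a median of −0.24, and −0.16 without experiment 1, led by Krt5 at −0.95 (SE 0.43), of which experiment 1 gave −1.85. Mature (13) and immature (12) neuron markers had medians of −0.04 and −0.06, respiratory ciliated markers (8) −0.03, endothelial markers (8) −0.02 and fibroblast markers (7) −0.12.

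**Figure D4:**
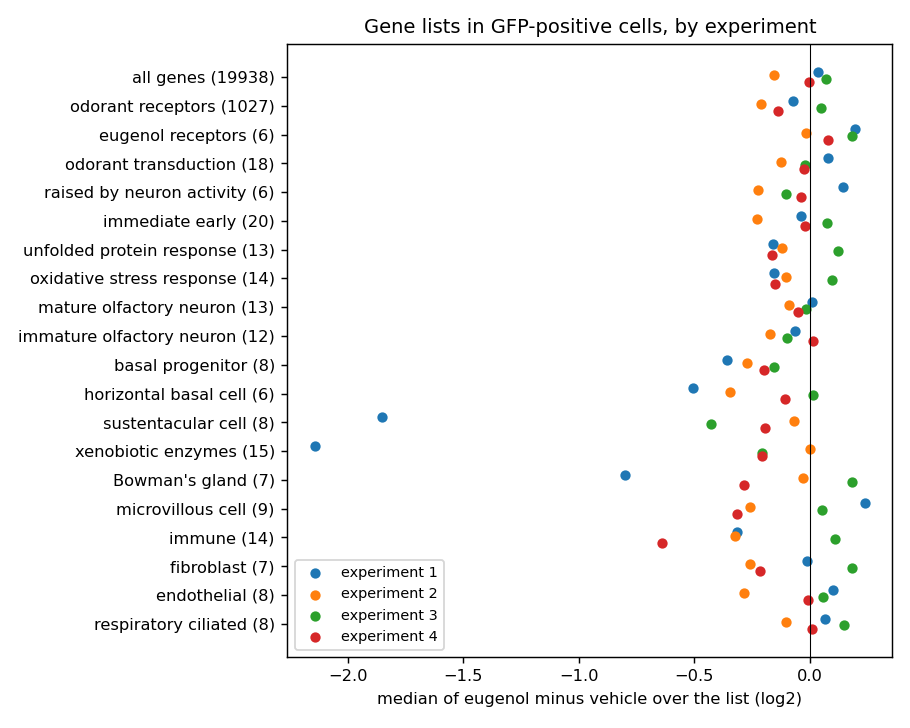
Median eugenol minus vehicle difference (log2) of each gene list in GFP-positive cells, 1 point an experiment, with the number of measured genes in parentheses. Sustentacular markers and xenobiotic enzymes reach −1.85 and −2.14 in experiment 1 and lie between −0.43 and 0.00038 in the others, while mature neuron genes stay near 0.

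**Figure D5:**
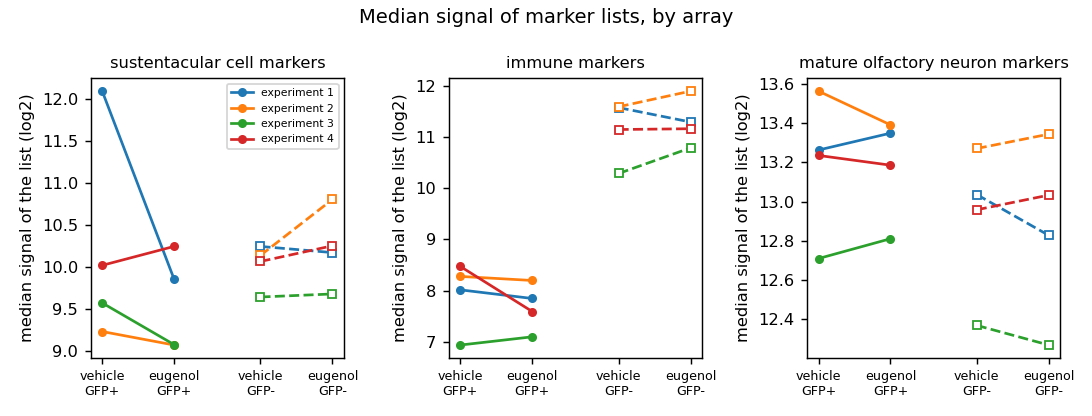
Median signal (log2) of 3 marker lists in each array of the eugenol experiments, GFP-positive cells as filled points and GFP-negative cells as open squares, with 1 colour an experiment; lines join vehicle and eugenol of an experiment. The vehicle GFP-positive array of experiment 1 stands at 12.09 for sustentacular markers, immune markers are lower in every GFP-positive array, and the axes do not start at 0.

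The difference was next set against the same difference in GFP-negative cells, which asks whether eugenol moved a gene's transcripts between the gates. This uses arrays of both gates, and 0 of 19,938 genes (0%) passed in limma, with 237 at a raw p under 0.05 (1.19%). Olfr961 had the smallest p of all genes. In GFP-negative cells it measured 8.66, 8.99, 7.65 and 8.24 with eugenol against 8.91, 10.21, 8.59 and 8.91 with vehicle, so the lower values there stood opposite the higher ones in GFP-positive cells. The receptor family as a whole was lower there, with a median eugenol difference of −0.14 over 1027 receptors, against −0.04 over all genes. At a raw p under 0.05, 46 receptors were lower and 4 higher in GFP-negative cells, against 381 and 85 of all genes. The eugenol difference of Olfr961 was 0.32 in GFP-positive and −0.77 (SE 0.17) in GFP-negative cells, and the contrast was 1.09 (SE 0.24, limma adjusted p = 0.9999). It was positive in 4 of 4 experiments, at 0.55, 1.35, 1.25 and 1.22, and over the other ways of processing the adjusted p was 0.112 to 0.999997.

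The neighbours of Olfr961 on chromosome 9 gave a contrast of the same sign. Olfr958 was at 0.93 (SE 0.32) and Olfr960 at 0.86 (SE 0.30), each positive in 4 of 4 experiments. By experiment Olfr958 gave 0.18, 1.26, 1.55 and 0.75, and Olfr960 0.22, 1.65, 1.19 and 0.38. Olfr958 was at 0.73 without experiment 3 and Olfr960 at 0.60 without experiment 2. In experiment 2 the median signal of all receptors in GFP-negative cells was 8.89 with eugenol and 9.44 with vehicle. Both contrasts rested mostly on GFP-negative cells, where the eugenol difference was −0.72 for Olfr958 and −0.86 for Olfr960, while in GFP-positive cells it was 0.21 and 0.00. Olfr913, Olfr74 and Olfr73 gave contrasts of 0.55 (SE 0.46), 0.44 (SE 0.50) and 0.37 (SE 0.29). Among cell cycle genes, Top2a had a contrast of −0.75 (SE 0.24), lower with eugenol in GFP-positive and 0.28 higher in GFP-negative cells.

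Set against muscone, a musk odorant given in separate experiments with their own vehicle arrays, the eugenol difference in GFP-positive cells differed for 1 gene, Olfr1434 (0.00502%), with 1390 genes at a raw p under 0.05 (6.97%). Olfr1434, on the list of receptors linked to muscone, measured 5.06, 4.57, 3.72 and 4.15 with eugenol against 5.36, 5.58, 4.35 and 4.29 with vehicle. The lists were chosen with earlier results of these data known, so its place on that list is not independent evidence. All 8 values lay below the dim limit of 6.19. In the muscone experiments it measured 7.14, 6.91, 6.45 and 6.64 against 5.38, 4.13, 3.43 and 4.69, with no overlap. The vehicle values there were below the limit too, so the sizes that follow rest on dim signals and are approximate. The eugenol difference was −0.52 (SE 0.29), the muscone difference 2.38 (SE 0.29), and eugenol minus muscone −2.90 (SE 0.41, limma adjusted p = 0.00856).

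That call was lost without eugenol experiment 1 (adjusted p = 0.0505), without eugenol experiment 3 (0.0972), without the experiment block (0.999998), and with a filter on dim genes, which removes Olfr1434 itself. The alternatives together gave it adjusted p-values of 4.61e-05 to 0.999998. The receptors of the eugenol list differed little in the muscone experiments: Olfr961 by 0.02 (SE 0.17), Olfr958 by −0.03 (SE 0.23), Olfr960 by −0.24 (SE 0.21) and Olfr74 by 0.31 (SE 0.35). Ngp, a neutrophil granule protein, had the next smallest p, at −1.47 (SE 0.31, limma adjusted p = 0.713).

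Probe sets without a single gene name were fitted apart. Of 13,767 such probe sets 0 passed in limma and 545 had a raw p under 0.05, and of the 100 that name an odorant receptor among several genes 0 passed and 0 had a raw p under 0.05. A further 1851 probe sets of genes already tested gave 0 calls and 81 at a raw p under 0.05.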

How the data were processed

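The file deposited by the authors holds log2 values for 35,556 probe sets, computed in Affymetrix Expression Console per the submitters' processing notes. How background, scale and probe summary were handled there is not stated in those notes or the labels. Values ran from 1.80 to 14.95, and the number of arrays limits the precision. Probe sets with exactly 1 symbol in the platform annotation (21,789) were tested, the brightest standing for a gene, which left 19,938 genes. Of those probe sets 21,698 matched the RefSeq table of GRCm38.p6 by gene ID.

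All 32 arrays entered 1 fit in limma 3.58.1 (R 4.3.3) with 8 group means and a fixed block for the experiment (18 residual degrees of freedom). Tests were two-sided and adjusted by Benjamini-Hochberg over all genes, with a threshold of 0.05. The block comes from the numbers in the titles. Deviations of eugenol and vehicle arrays from their group means correlated at 0.45 to 0.50 within an experiment (4 pairs) and at −0.36 to 0.07 between experiments. The scripts were tested on simulated data.

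Named genes were those past the threshold, the 10 with the smallest p per direction, 12 higher and 6 lower odorant receptors, 3 members of each of 27 lists, S100a5, Omp and the eugenol list. Genes outside the rule are marked as chosen after their values were seen, except in the comparisons with GFP-negative cells and muscone, where the smallest p led. The arrays compared, the members and the lists were chosen with earlier results of these data known. Alternatives were other scalings, blocks, array sets, filters, priors, array weights and leaving out each experiment. RefSeq start windows existed for 5 of 6 eugenol receptors. Since 72.4% of 948 receptor windows have an ATG at the annotated gene start, no promoter is shown.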

Additional observations from a re-analysis of the deposited data

Results flagged for a closer look

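Differences between the 4 experiments were checked for 1 value far from the other 3, over 118 named genes and the gene lists (148 checks). Chance marks about 1 in 20, and 10 were marked. Among the 6 genes, 4 stood apart in experiment 1, where the vehicle GFP-positive array had the high sustentacular markers: Aldh1a7, a xenobiotic aldehyde dehydrogenase, at −2.88 (−0.35 to 0.11 in the others), Casp8 at −1.81 (−0.52 to −0.50), B2m at −1.37 (−0.52 to −0.44) and Aqp5, the water channel of Bowman's glands, at −1.17 (−0.03 to 0.16). Olfr504 stood apart in experiment 2 at 0.43 (0.08 to 0.14) and Neurod1 in experiment 3 at −1.19 (−0.33 to −0.27). Of the lists, the xenobiotic enzymes had a median of −2.14 in experiment 1 (−0.21 to 0.00038), the vomeronasal receptors −0.35 in experiment 2 (0.06 to 0.14), the apoptosis genes −0.25 in experiment 2 (0.000696 to 0.05) and the unfolded protein response genes 0.12 in experiment 3 (−0.16 to −0.12). In experiment 2 the median of all genes was −0.16.

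Olfr1434 was marked because the eugenol and muscone differences in GFP-positive cells differed by test, at −2.90 (SE 0.41, limma adjusted p = 0.00856), with its eugenol experiment signals below the dim limit.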

How the results depend on the processing

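Under all 16 alternatives 0 genes and 0 odorant receptors passed between eugenol and vehicle, with the smallest adjusted p at 0.162 (array weights), and 0 genes passed in the contrast of the gates. The count at a raw p under 0.05, 923 as reported, was 5 without the replicate block (median SE 0.47), 465 with centring on mature neuron genes, 2841 with centring on odorant receptors and 2809 with array weights. It was 627 to 2129 when 1 experiment was left out, the highest without experiment 2. Centring on odorant receptors moved the median of all genes to 0.13. The number of genes that differed between eugenol and muscone, 1 as reported, was 0 without the replicate block and 0 with the filter on dim genes, and 0 to 1 when 1 eugenol experiment was left out. The block's other effects were on counts, and it changed no other call. Of 1873 values for 118 named genes, 50 changed sign, 23 of them with centring on odorant receptors, and 0 were calls. With 1 experiment left out, 27 of 30 list medians and 64 of 118 named genes moved by over 1.5 times under at least 1 choice, and 12 and 15 changed sign. Dim signals limit the genes that the filter removed, which kept 103 of the 118. The small number of experiments limits all.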

Other observations

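Lcn2, an iron-binding protein of neutrophils, was at −0.53 with eugenol and 0.85 with muscone in GFP-positive cells (eugenol minus muscone −1.37, SE 0.33, limma adjusted p = 0.713), and Ngp was at −0.56 and 0.91. The neutrophil genes of the immune list, S100a8, S100a9 and Ly6g, were at −0.25 (SE 0.49), −0.32 (SE 0.46) and −0.09 (SE 0.26) with eugenol. In the contrast of the gates Anxa1, an annexin, was at −1.42 (SE 0.49), 0.997 lower with eugenol in GFP-positive and 0.42 higher in GFP-negative cells. Lcn2, Ngp and Anxa1 were chosen after their values were seen. Among probe sets without a single gene name the eugenol minus vehicle differences ran from −3.12 to 1.11 (log2).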
